A study of Mus musculus with 20 samples.

Results

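Open chromatin on day 1 of adipocyte differentiation was compared with open chromatin 4 hours after induction. The members were all peaks of the 2 DNase I hypersensitive site (DHS) lists of these times, 35389 on day 1 and 31751 at 4 hours, so 67140 of the 284878 peaks in the series. A day 1 peak that shared no base with a 4 hours peak was called new. A 4 hours peak that shared no base with a day 1 peak was called closed, and peaks that overlapped by 1 bp or more were called kept. New and closed mean present in 1 list and not in the other.

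The cells were 3T3-L1, a mouse preadipocyte line that turns into adipocytes under hormones. DHS-seq digests nuclei lightly with DNase I and sequences the small fragments that come from accessible DNA. The day 1 and 4 hours samples came from cells grown to confluence, held 2 days, and then given fetal bovine serum, 3-isobutyl-1-methylxanthine, insulin and dexamethasone; per the labels the medium was changed on day 2, so both times fell within the same hormone treatment. The labels call day 1 an intermediate stage and 4 hours an early stage. DHS lists of day 0, 2 hours, day 2 and day 6 and ChIP-seq lists of C/EBPbeta, C/EBPdelta, GR, Stat5a, RXR, PPARgamma and RNA polymerase II (RNA Pol II) were set against them; no ChIP-seq list of day 1 was analysed here. Each group is 1 library of a cultured line, so nothing was tested against replicate spread. In such bulk samples, a site open in fewer cells and a site less open in each cell cannot be told apart. The lists hold no expression, so the stage was not checked against marker genes.

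Accessible sites away from promoters are mostly enhancers, where transcription factors displace or loosen nucleosomes. In 3T3-L1 cells C/EBPbeta and C/EBPdelta act in the first hours, with the glucocorticoid receptor GR, which dexamethasone activates, and with Stat5a, a transcription factor of cytokine and growth hormone signalling. They lead to PPARgamma, which binds DNA together with RXR and drives the adipocyte genes. RNA Pol II transcribes the genes and marks active promoters.

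Most open sites were shared, and the shares of new and closed peaks were of like size. Of the day 1 peaks, 10390 of 35389 were new, which is 29.4% (95% interval 28.9 to 29.8). Of the 4 hours peaks, 7308 of 31751 were closed, which is 23.0% (22.6 to 23.5). These percentages are also the background for every share of new or closed peaks given further on. Intervals are exact (Clopper-Pearson) and take in counting error over peaks, not the error between libraries. The day 1 list had more peaks but covered less DNA, 19499156 bp against 20864261 bp at 4 hours. The kept peaks numbered 24999 in the day 1 list and 24443 in the 4 hours list. The lists fell into 41986 merged regions, of which 10389 were new, 7305 closed and 24292 kept.

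Kept sites sat at nearly the same place at both times. Overlapping pairs shared a median of 521 bp, their middles lay a median of 38.0 bp apart, and 99.1% of the 25148 pairs shared at least 50% of the shorter peak. The day 1 peak was the narrower of the pair in 75.5% of cases, with a median width ratio of 0.865 (day 1 over 4 hours). A kept 4 hours peak was met by several day 1 peaks in 675 cases, and a kept day 1 peak met several 4 hours peaks in 149. Few peaks stood at the border of the classes: 117 pairs overlapped by under 50 bp, while 86 new and 45 closed peaks lay within 50 bp of a peak of the other list without sharing a base.

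New and closed peaks were narrow. The median width was 414 bp for new peaks, against 557 bp for kept peaks of the day 1 list, and 479 bp for closed peaks, against 642 bp for kept peaks of the 4 hours list. Of the 7012 day 1 peaks of up to 382 bp, 57.1% were new, and of the 7085 of 689 bp or more, 5.53% were. Of the 6344 peaks of up to 461 bp in the 4 hours list, 50.9% were closed, and of the 6357 of 814 bp or more, 3.18% were. The lists carry no score, so the part that peak strength and width had in the classes was not tested. Since width moved with the class, shares within peaks of 400 to 600 bp are given beside the results, where they differ.

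**Figure D1:**
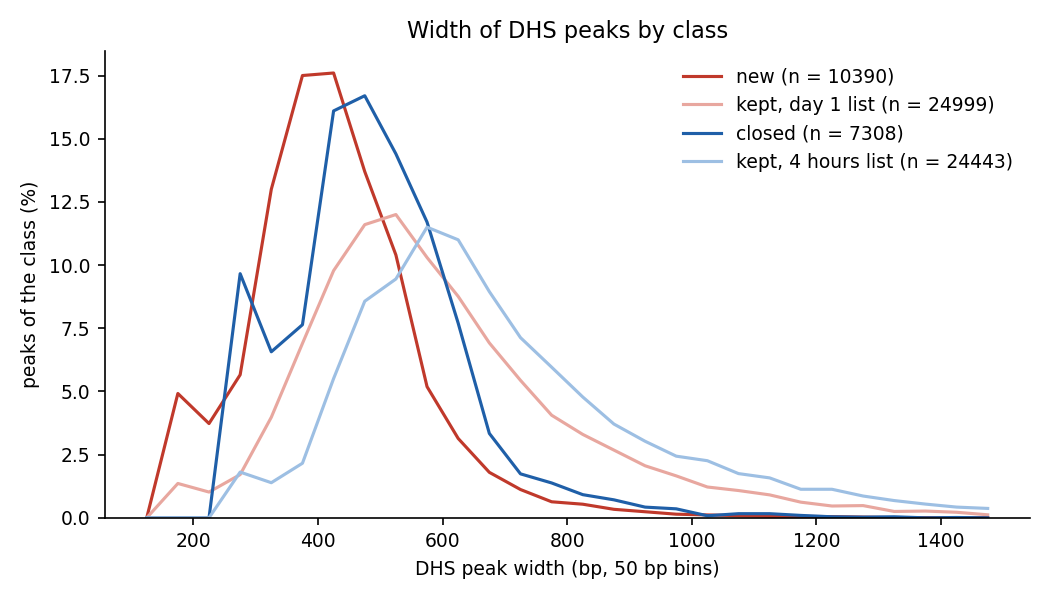
Width of DHS peaks (horizontal axis, bp, in bins of 50 bp up to 1500 bp) as a percentage of each class (vertical axis), for new peaks and kept peaks of the day 1 list, and for closed peaks and kept peaks of the 4 hours list. New peaks have a median of 414 bp, against 557 bp for kept day 1 peaks, and closed peaks 479 bp, against 642 bp for kept 4 hours peaks.

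The shortest day 1 peak was 150 bp wide, and the day 1 list held 1504 peaks shorter than any 4 hours peak, of which 907 were new (60.3%, 57.8 to 62.8). Without them, 28.0% of day 1 peaks were new and 24.5% of 4 hours peaks were closed. Of the short new peaks 17.9% were in the day 2 DHS list, against 31.1% of the longer ones, and 2.65% held PPARgamma of day 2, against 5.22%. RNA Pol II of 4 hours went the other way, with 5.40% (4.02 to 7.08) of the short and 3.75% (3.38 to 4.16) of the longer new peaks.

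New and closed peaks were mostly in 1 DHS list only. The other DHS lists are shorter, with 9989 peaks on day 0, 9055 at 2 hours, 25097 on day 2 and 11936 on day 6. Absence from these shorter lists does not show that a site was closed at that time. Of the new peaks, 6782 (65.3%, 64.3 to 66.2) were in no other DHS list, and of the closed peaks, 5745 (78.6%, 77.7 to 79.5). Kept peaks are in both lists by definition, and 22.1% of those of day 1 were in none of the DHS lists of day 0, 2 hours, day 2 and day 6. Of the new peaks, 4.41% had been listed on day 0 or at 2 hours, against 49.2% of kept day 1 peaks. Closed peaks had been listed on day 0 or at 2 hours in 7.62% of cases, against 49.4% of kept 4 hours peaks.

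More of the new than of the closed peaks were listed later. The day 2 DHS list held 30.0% (29.1 to 30.9) of new peaks, against 68.2% of kept and 57.0% of all day 1 peaks. It held 13.9% (13.1 to 14.7) of closed peaks, against 68.2% of kept and 55.7% of all 4 hours peaks. On day 6, 6.39% (5.93 to 6.88) of new peaks and 1.81% (1.51 to 2.14) of closed peaks were listed, beside 30.7% of all day 1 peaks and 32.1% of all 4 hours peaks. The DHS list of 2 hours leaned the other way, with 1.52% (1.29 to 1.77) of new and 5.93% (5.39 to 6.49) of closed peaks, beside 24.0% of all day 1 and 27.2% of all 4 hours peaks. Within 400 to 600 bp the day 2 shares were 33.5% of new peaks, against 60.7% of kept day 1 peaks, and 13.3% of closed peaks, against 53.7% of kept 4 hours peaks.

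Most sites that were open before induction were shared by the 2 times. Of the 9989 DHS peaks of day 0, 91.9% lay at kept sites, 3.28% at new and 1.88% at closed ones. That list held 3.16% of new peaks, beside 27.0% of all day 1 peaks, and 2.59% of closed peaks, beside 29.2% of all 4 hours peaks. Of the 4 hours peaks that were in the day 0 list, 2.04% (1.76 to 2.35, n = 9269) were closed on day 1, against 31.7% (31.1 to 32.3) of the 22482 that were not. Within 400 to 600 bp, 2.06% of closed peaks had been listed on day 0, against 16.8% of kept 4 hours peaks.

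C/EBPbeta, a transcription factor that opens the adipogenic programme, was followed through its 4 lists. At closed peaks its share was 17.2% on day 0, 23.9% at 2 hours, 40.4% (39.3 to 41.6) at 4 hours and 14.1% (13.4 to 15.0) on day 2. At new peaks the same shares were 22.0%, 18.7%, 27.2% (26.3 to 28.1) and 23.1% (22.3 to 23.9). The share at closed peaks was highest in the list of 4 hours, and at new peaks the 4 shares lay closer together. The 4 hours list is also the longest of the 4, with 29957 peaks, against 19703 to 21486 in the others. Of the 2956 closed peaks with C/EBPbeta at 4 hours, 56.8% had it at 2 hours as well, against 75.3% of such kept 4 hours peaks and 63.7% of such new peaks. For kept 4 hours peaks the shares in the 4 lists were 33.6%, 33.6%, 43.4% and 27.2%. Over all 4 hours peaks the shares were 29.8%, 31.4%, 42.7% and 24.2%, and over all day 1 peaks 29.6%, 28.7%, 38.0% and 25.5%.

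**Figure D2:**
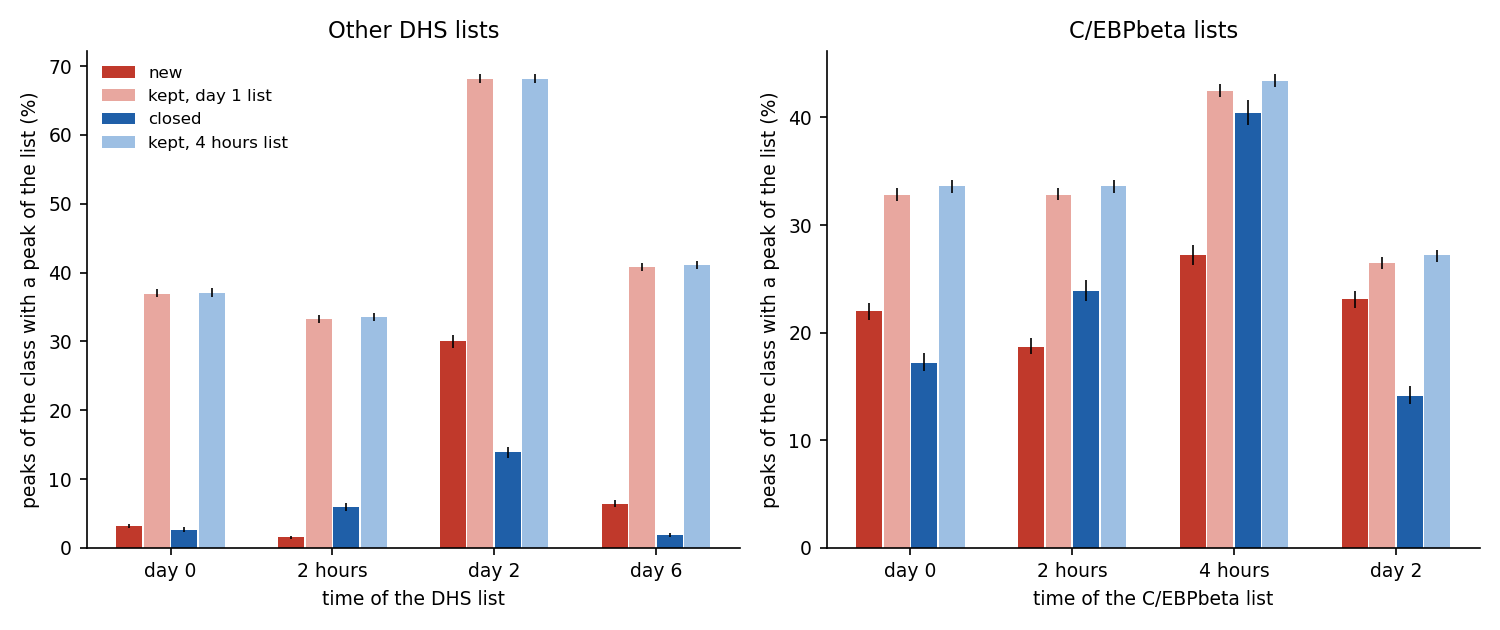
Percentage of peaks of each class (vertical axis) that overlap a peak of the DHS lists of day 0, 2 hours, day 2 and day 6 (left) and of the C/EBPbeta lists of day 0, 2 hours, 4 hours and day 2 (right). Bars are new, kept day 1, closed and kept 4 hours peaks, and error bars are exact 95% intervals over peaks. Closed peaks hold C/EBPbeta in 40.4% at 4 hours and 14.1% on day 2, while new peaks hold it in 27.2% and 23.1%.

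Whether C/EBPbeta was at a site at 4 hours barely separated the sites that closed from those that stayed. The share of closed peaks with C/EBPbeta at 4 hours was 2.96 percentage points lower than that of kept 4 hours peaks (40.4% and 43.4%). Among peaks of 400 to 600 bp the shares were near equal (40.5% and 40.1%), and the interval of the difference, -1.46 to 2.12, took in both signs. The direction also turned when the classes were made from the wider 50% of each list (48.9% and 46.3%). What C/EBPbeta did before and after differed more. Of the closed peaks with C/EBPbeta at 4 hours, 33.7% (n = 2956) still had it on day 2, against 60.9% of such kept 4 hours peaks (n = 10611) and 68.1% of new peaks with C/EBPbeta at 4 hours (n = 2825). Day 0 showed a like split: the day 0 list of C/EBPbeta covered 36.6% of those closed peaks, against 69.1% of those kept ones. Within 400 to 600 bp the day 2 shares were 33.2% and 61.8%.

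Single binding patterns gave the same picture. C/EBPbeta at 4 hours and in none of its other 3 lists was found at 13.6% (12.8 to 14.4) of closed peaks and at 5.97% (5.68 to 6.27) of kept 4 hours peaks. C/EBPbeta in all 4 of its lists was found at 7.39% (6.80 to 8.01) of closed and at 21.0% (20.5 to 21.5) of kept 4 hours peaks. The same pattern of all 4 lists was found at 10.8% of new peaks, against 20.5% of kept day 1 peaks.

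New sites carried less C/EBPbeta at 4 hours than the day 1 list as a whole, but some carried it while out of the DHS list. At 4 hours, when by definition no new peak was in the DHS list, C/EBPbeta lay at 2825 of the 10390 new peaks (27.2%), against 42.5% of kept and 38.0% of all day 1 peaks. The 458 new peaks that had been in the DHS lists of day 0 or 2 hours are included here. Of the 2825, 1664 (58.9%) had it on day 0 as well. C/EBPdelta, its close relative, was rare on day 0, at 2.61% of new and 1.20% of closed peaks, beside 5.62% of all day 1 and 5.65% of all 4 hours peaks. It lay at 16.8% (16.1 to 17.6) of new peaks at 4 hours, beside 25.4% of all day 1 peaks. Whether these sites were already somewhat open at 4 hours, below the threshold of the list, was not tested, since the lists hold no signal.

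GR, Stat5a and RXR were all rarer at closed than at kept 4 hours peaks. GR lay at 5.13% (4.64 to 5.66) of closed and 11.3% (10.9 to 11.7) of kept peaks, beside 9.89% of all 4 hours peaks. RXR, the partner of PPARgamma and of other nuclear receptors, lay at 1.70% (1.41 to 2.02) of closed and 5.68% (5.40 to 5.98) of kept peaks, beside 4.77% of all. Stat5a lay at 8.10% (7.49 to 8.75) of closed and 11.6% (11.2 to 12.0) of kept peaks, beside 10.8% of all. At widths of 400 to 600 bp the closed and kept shares were 4.47% and 7.95% for GR, 1.67% and 3.98% for RXR and 7.76% and 9.43% for Stat5a. At new peaks GR lay at 3.81%, RXR at 2.32% and Stat5a at 6.40%, beside 8.97%, 4.59% and 9.86% of all day 1 peaks.

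**Figure D3:**
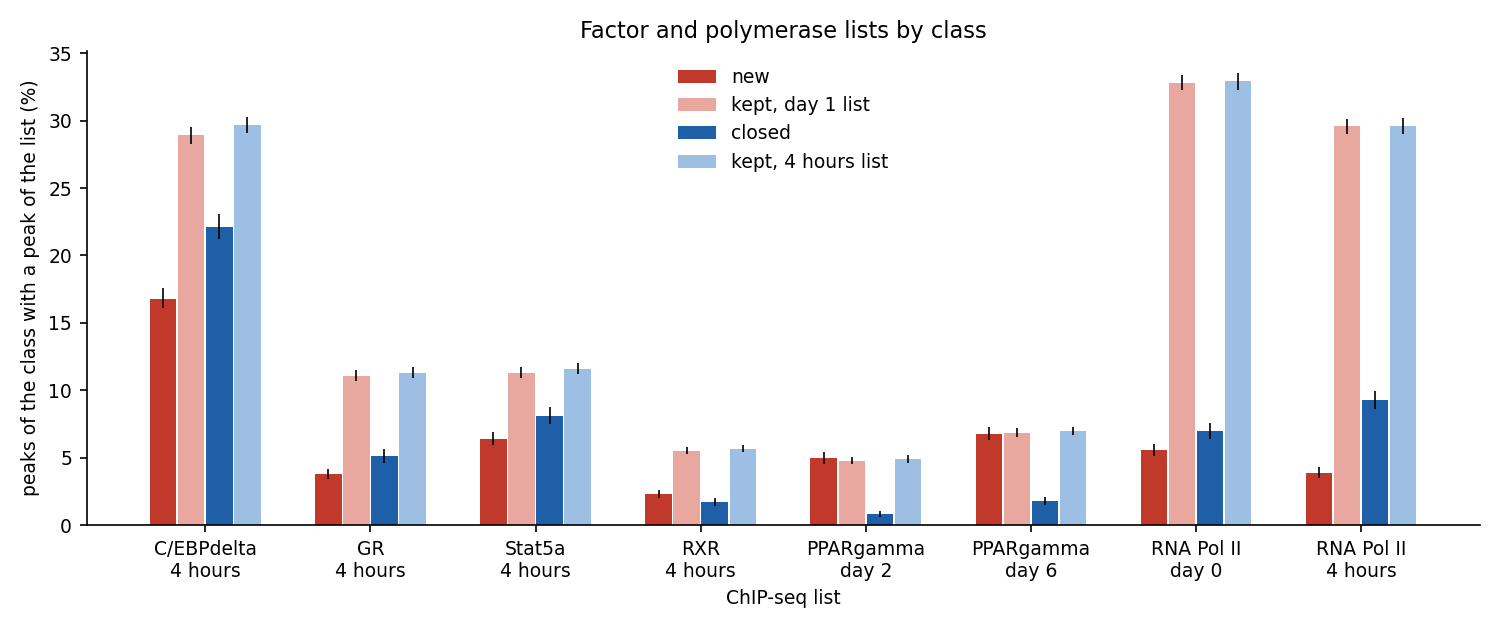
Percentage of peaks of each class (vertical axis) that overlap a peak of 8 ChIP-seq lists (horizontal axis). Bars are new, kept day 1, closed and kept 4 hours peaks, and error bars are exact 95% intervals over peaks. PPARgamma of day 2 lies at 5.0% of new, 4.78% of kept day 1, 0.848% of closed and 4.91% of kept 4 hours peaks, and RNA Pol II of 4 hours at 3.90%, 29.6%, 9.28% and 29.6%.

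The share of peaks closed was highest with 1 factor and lowest with 5. The factors counted were the 5 with a list of 4 hours, GR, Stat5a, RXR and both C/EBPs. Of the peaks with none of them, 23.9% (23.2 to 24.5, n = 17207) were closed on day 1. With 1 factor the share was higher, 28.1% (26.9 to 29.3, n = 5315). With 2 factors it was 22.4% (n = 5268), with 3 factors 17.6% (n = 1969), with 4 factors 11.2% (n = 1194) and with all 5 factors 5.76% (4.25 to 7.61, n = 798). Median width went up alongside, 581 bp with no factor and 740.5 bp with 5. Among peaks of 400 to 600 bp the shares closed were 33.0%, 39.9%, 33.0%, 28.9%, 20.2% and 12.3% for 0 to 5 factors, again highest with 1 factor and lowest with 5. The share of day 1 peaks that were new was lower with more of the same factors too, at 34.6%, 27.0%, 22.0%, 18.0%, 12.7% and 11.1% for 0 to 5 factors. It was highest with no factor. A lower share with more factors was thus not particular to closing. New peaks are by definition absent from the 4 hours DHS list, and the factors are of 4 hours, so the 2 are linked by definition. Median width of these day 1 peaks went from 484 bp with no factor to 662 bp with 5, and shares new at 400 to 600 bp were not computed.

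**Figure D4:**
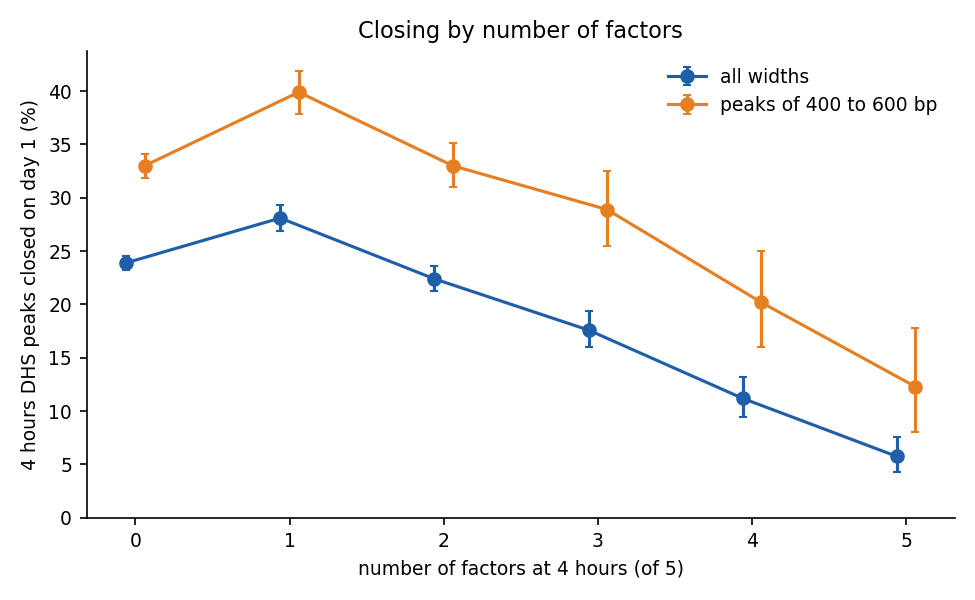
Percentage of 4 hours DHS peaks that were closed on day 1 (vertical axis) by how many of GR, Stat5a, RXR and both C/EBPs were at the peak at 4 hours (horizontal axis), for all peaks and for peaks of 400 to 600 bp. Error bars are exact 95% intervals over peaks. The share is highest with 1 factor (28.1%) and lowest with 5 (5.76%).

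The share closed differed between combinations of factors, of which some with 100 peaks or more are given here. Sites with C/EBPbeta alone were closed in 28.7% (27.4 to 30.1, n = 4442) of cases, sites with Stat5a alone in 29.7% (25.1 to 34.7, n = 370) and sites with C/EBPbeta and Stat5a in 30.9% (26.1 to 36.1, n = 343). With both C/EBPs the share was 22.0% (20.8 to 23.2, n = 4610), and with both C/EBPs and Stat5a 21.4% (18.5 to 24.5, n = 749). With both C/EBPs and GR it was 14.4% (12.1 to 17.0, n = 847), and with both C/EBPs and RXR 13.5% (9.31 to 18.7, n = 222). With both C/EBPs, GR and RXR it was 6.87% (3.98 to 10.9, n = 233), and with both C/EBPs, GR and Stat5a 12.6% (10.4 to 15.1, n = 800). GR or RXR beside both C/EBPs thus went with a lower share closed, while with Stat5a beside them the interval held the share of both C/EBPs alone. The median widths of these combinations ran from 575 bp (Stat5a alone) to 737 bp (both C/EBPs, GR and RXR). Among peaks of 400 to 600 bp the shares were 32.3% for both C/EBPs, 32.1% with Stat5a, 22.4% with GR, 27.3% with RXR (17.7 to 38.6, n = 77) and 17.3% with GR and RXR (8.23 to 30.3, n = 52). There the interval with RXR held the share of both C/EBPs alone, and those with GR (17.4 to 28.0) and with GR and RXR lay below it. With both C/EBPs, Stat5a and RXR the share closed was 10.3% (6.02 to 16.2, n = 155) over all widths. At 400 to 600 bp it was 15.4% (6.88 to 28.1, n = 52), an interval below the 32.1% of both C/EBPs with Stat5a. Without C/EBPdelta, the share closed was 19.1% (13.8 to 25.3, n = 194) with C/EBPbeta and GR. With Stat5a as well it was 24.8% (17.3 to 33.6, n = 117), and this interval held the share of C/EBPbeta and Stat5a. At 400 to 600 bp those shares were 35.0% (23.1 to 48.4, n = 60) and 51.2% (35.1 to 67.1, n = 41), beside 40.1% and 43.9% without GR.

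PPARgamma, the receptor that drives adipocyte genes, was listed on day 2 and day 6. On day 2 it lay at 519 of the 10390 new peaks, which is 5.0% (4.58 to 5.43), and at 62 of the 7308 closed peaks, which is 0.848% (0.651 to 1.09). The share at kept day 1 peaks was 4.78% (4.52 to 5.05), and the intervals of new and kept peaks overlapped, beside 4.84% of all day 1 peaks and 3.97% of all 4 hours peaks. Among peaks of 400 to 600 bp the shares were 5.84% (5.20 to 6.54) of new, 3.53% (3.19 to 3.89) of kept day 1 and 0.741% of closed peaks. There the intervals of new and kept peaks did not overlap. On day 6 PPARgamma lay at 6.80% (6.33 to 7.31) of new and 1.79% (1.5 to 2.12) of closed peaks, beside 6.84% of all day 1 and 5.79% of all 4 hours peaks. Seen from the 3168 PPARgamma peaks of day 2, 15.8% lay at new sites, 2.18% at closed sites, 37.3% at kept sites and 44.8% at none of them.

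The new sites that took PPARgamma had carried fewer early factors than the kept sites that took it. Of the 519 new peaks with PPARgamma on day 2, 53.8% (49.4 to 58.1) had C/EBPbeta at 4 hours, against 83.2% of the 1195 kept day 1 peaks with PPARgamma. GR of 4 hours had been at 9.25% (6.90 to 12.1) of the new ones, against 40.6% (37.8 to 43.4) of the kept ones, and RXR of 4 hours at 8.48% (6.23 to 11.2), against 31.7% (29.1 to 34.4). Day 2 C/EBPbeta was near equal, at 74.6% and 79.2%. PPARgamma was still listed on day 6 at 72.8% and 69.5% of them. At 400 to 600 bp, GR had been at 9.82% of the new and 34.3% of the kept peaks with PPARgamma. Over all new and all kept day 1 peaks, with or without PPARgamma, the 4 hours shares went the same way. They were 27.2% and 42.5% for C/EBPbeta, 3.81% and 11.1% for GR, and 2.32% and 5.54% for RXR. The lower shares are thus not particular to sites with PPARgamma, and new peaks are by definition absent from the 4 hours DHS list.

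PPARgamma of day 2 lay mostly at peaks in the day 2 DHS list, among new and kept day 1 peaks alike. That list held 90.8% of new peaks with PPARgamma on day 2, against 30.0% of all new peaks. It held 97.0% of kept day 1 peaks with PPARgamma, against 68.2% of all kept day 1 peaks. Of the 3115 new peaks in the day 2 DHS list, 15.1% (13.9 to 16.4) held PPARgamma of day 2 and 47.9% (46.1 to 49.6) held C/EBPbeta of day 2. Of the 7275 new peaks that were not in it, 0.660% (0.487 to 0.874) and 12.5% (11.7 to 13.2) did. The day 2 factors and the day 2 DHS list come from the same time, but the early lists differed in the same direction: 42.7% of the lasting new peaks and 20.5% of the others held C/EBPbeta of 4 hours, and 32.8% and 17.3% held that of day 0. RNA Pol II of 4 hours differed little, with 4.62% and 3.59%. The new peaks in the day 2 DHS list were wider (median 452 bp, against 400 bp), and within 400 to 600 bp the PPARgamma shares were 16.3% and 0.585%. Of the new peaks in the day 2 DHS list, 13.3% were in that of day 6, against 3.42% of the others.

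**Figure D5:**
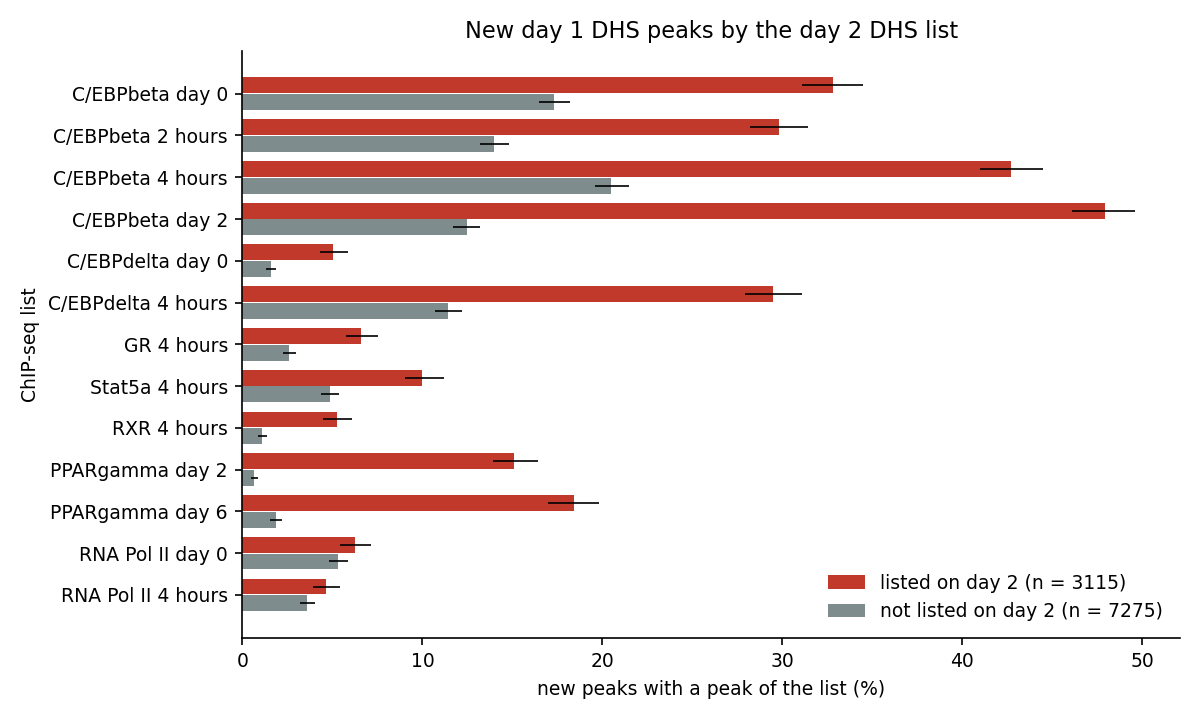
Percentage of new day 1 peaks (horizontal axis) that overlap a peak of each of 13 ChIP-seq lists (vertical axis), for the 3115 new peaks in the day 2 DHS list and the 7275 that are not in it. Error bars are exact 95% intervals over peaks. PPARgamma of day 2 lies at 15.1% and 0.660%, and C/EBPbeta of day 0 at 32.8% and 17.3%.

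RNA Pol II was rare at sites that changed. Its 4 hours list covered 3.90% (3.53 to 4.29) of new peaks and 29.6% (29.0 to 30.1) of kept day 1 peaks, beside 22.0% of all day 1 peaks. It covered 9.28% (8.62 to 9.97) of closed peaks and 29.6% (29.0 to 30.2) of kept 4 hours peaks, beside 24.9% of all 4 hours peaks. RNA Pol II of day 0 covered 5.58% (5.15 to 6.04) of new and 7.01% (6.43 to 7.62) of closed peaks, beside 24.8% of all day 1 and 26.9% of all 4 hours peaks. New peaks lay a median of 48.6 kb from the nearest RNA Pol II peak of either time, against 10.6 kb for kept day 1 peaks, and closed peaks 34.7 kb, against 11.2 kb for kept 4 hours peaks. Among peaks of 400 to 600 bp, the 4 hours RNA Pol II shares were 3.59% of new and 23.5% of kept day 1 peaks, and 7.83% of closed and 14.3% of kept 4 hours peaks.

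Over all widths, closed peaks listed again on day 2 held RNA Pol II at a share near that of the whole 4 hours list. The other closed peaks had a lower share. Of the 1014 closed peaks that were back in the day 2 DHS list, 26.4% (23.7 to 29.3) held RNA Pol II of 4 hours, against 6.51% (5.92 to 7.15) of the 6294 that were not, beside 24.9% of all and 29.6% of kept 4 hours peaks. PPARgamma of day 2 lay at 4.54% (3.34 to 6.00) of them, against 0.254% (0.145 to 0.412), and C/EBPbeta of 4 hours at 39.3% and 40.6%, whose intervals overlapped. Both groups had like widths (median 484 bp and 478 bp), but the whole 4 hours list was wider (median 599 bp). Within 400 to 600 bp, RNA Pol II of 4 hours lay at 22.3% of the closed peaks listed on day 2. It lay there at 5.61% of the other closed peaks and 14.3% of kept 4 hours peaks. With a gap of up to 500 bp counted as shared, 734 closed peaks were in the day 2 list and 17.7% of them held RNA Pol II, against 4.8% of the others. With peaks set to 200 bp the shares were 37.1% and 6.96%, and in the wider 50% of each list 36.1% and 10.3%.

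New and closed sites were found on chromosome X and on every autosome. The share of day 1 peaks that were new ran from 24.8% (22.9 to 26.8) on chromosome 7 to 34.0% (30.8 to 37.4) on chromosome X. The share of 4 hours peaks that were closed was lowest on chromosome X, at 17.1%, and highest on chromosome 6, at 25.4%. In windows of 1 Mb, where the median was 4 new and 3 closed peaks, the most new peaks were counted on chromosome 10 at 96000001 to 97000000, with 32 new and 2 closed peaks. Next came chromosome 1 at 45000001 to 46000000, with 28 new and 1 closed, and chromosome 16 at 86000001 to 87000000, with 27 new and 2 closed. The most closed peaks were counted on chromosome 10 at 116000001 to 117000000, with 11 new and 23 closed, and on chromosome 2 at 77000001 to 78000000, with 4 new and 23 closed. These windows were picked by their counts, which were not set against the number of peaks per window. In the order given, the windows with the most new peaks also held 27, 25 and 15 kept day 1 peaks. Those with the most closed peaks held 43 and 18 kept 4 hours peaks. All positions are on build mm9, counted from 1.

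Single sites are named by width within their class. The widest new peak was on chromosome 3 at 113562181 to 113563856, was also in the DHS list of day 2, and held C/EBPbeta at 2 hours and 4 hours and GR at 4 hours. The second lay on chromosome 2 at 13306520 to 13307972 and was listed on day 0, day 1, day 2 and day 6 but not at 2 hours or 4 hours, with RNA Pol II of day 0 only. The third lay on chromosome 16 at 86291051 to 86292433, inside the window rich in new peaks. It held all 5 factors at 4 hours and C/EBPbeta in all 4 lists, yet it was in the DHS lists of day 1 and day 2 only.

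Each of the 3 widest closed peaks held RNA Pol II, and none held GR, Stat5a or RXR. The widest was on chromosome 14 at 29319531 to 29321241, was in no other DHS list and held RNA Pol II of 4 hours only. The second, on chromosome 12 at 103213553 to 103214988, held RNA Pol II of day 0 and 4 hours and C/EBPbeta of day 0 and 2 hours, and was listed again on day 2. The third, on chromosome 12 at 29359850 to 29361173, was listed on day 0, at 4 hours and on day 2, with C/EBPbeta in all 4 lists and RNA Pol II of day 0. The widest kept day 1 peak lay on chromosome 17 at 39979824 to 39985785 and was in all 6 DHS lists, with both C/EBPs in every list and PPARgamma of day 2. It was 5962 bp wide, against 2724 bp for the next. Whether so wide a peak, present in so many lists, is an artefact of the sequence there was not tested. The next, at 86391739 to 86394462 of chromosome 11, was in all DHS lists but that of day 0. The third, at 143582969 to 143585617 of chromosome 5, was in all 6 DHS lists and held RNA Pol II at both times.

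Closed peaks with all 5 factors numbered 46 of 7308, beside 798 of the 31751 peaks of the whole 4 hours list. The widest closed one spanned 69927904 to 69929013 of chromosome 9. The next spanned 190067398 to 190068347 of chromosome 1, and the third spanned 148350801 to 148351704 of chromosome 2. The chromosome 9 and chromosome 2 sites were open at 2 hours too, and the chromosome 9 site was listed again on day 2. C/EBPbeta was still listed on day 2 at each of these 3 sites. New peaks with PPARgamma on both days numbered 378 of 10390, beside 830 of the 24999 kept day 1 peaks. The widest was on chromosome 19 at 24091110 to 24092382, in the DHS lists of day 1, day 2 and day 6, and held no other ChIP-seq peak. The next were on chromosome X at 33459526 to 33460747, with C/EBPbeta in all 4 lists, and on chromosome 2 at 134874280 to 134875485, with C/EBPbeta from 2 hours on and GR at 4 hours.

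Closed peaks that had been listed on both day 0 and at 2 hours numbered 65 of the 7308 closed peaks. Taken singly, the day 0 list held 2.59% of closed and 29.2% of all 4 hours peaks, and the 2 hours list 5.93% and 27.2%. The widest of the 65 spanned 3078854 to 3080051 of chromosome 11. The next spanned 32836338 to 32837253 of chromosome 18, and the third 77863766 to 77864676 of chromosome 2. The chromosome 11 site was listed again on day 2 and the chromosome 2 site on day 6. The chromosome 18 site held no ChIP-seq peak of any list, while the chromosome 2 site held GR, C/EBPdelta and C/EBPbeta in all 4 lists.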

How the data were processed

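Of the 19 peak lists that the authors deposited, 6 come from DHS-seq and 13 from ChIP-seq, and each gives chromosome, start and end per peak, with no score, signal or read count. Per the submitters' processing notes the build is mm9. The aligner, peak caller, threshold and depth are not given in the sources used here. The input sample was not used here, and no peak was left out as a repeat or artefact region.

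Peaks were overlapped by 1 bp or more, and a peak was counted once whatever number of peaks it met. Closed peaks were set against kept peaks of the 4 hours list, and new peaks against kept peaks of the day 1 list. Shares carry Clopper-Pearson 95% intervals, and no test was run, since each group is 1 library. Neighbouring peaks are not independent, and the intervals do not cover this. Overlap calls were tested on simulated data and equalled those of bedtools. Alternatives varied the overlap, the gap, the peak width, the list length and the short day 1 peaks. The work ran in Python 3.11.15, with SciPy 1.17.1 for intervals, NumPy 2.4.6 and, for figures, Matplotlib 3.10.9.

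The members, lists and named regions (the 3 widest peaks of each class and of 3 subsets) were chosen with earlier results of these data known. The splits by the day 2 list, by C/EBPbeta pattern and by PPARgamma, and the 1 Mb windows, were added after the values were seen. No mm9 genome or annotation was used here, so genes, start sites and sequences are not given.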

Additional observations from a re-analysis of the deposited data

How the results depend on the processing

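Depth is unknown and each group is 1 library with no score per peak, so absence from a list cannot be told apart from a weak peak under its threshold. No paired analysis was possible because every group held 1 library. The cause of each shift given here was not tested.

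The share of day 1 peaks that were new (29.4%) was 27.2% with gaps of up to 500 bp counted as shared, 34.4% with peaks set to 200 bp, 28.0% without short day 1 peaks, 31.3% in the wider 50% of each list, 26.0% at equal list length, 30.7% at 400 to 600 bp and 30.0% over merged regions. The share closed (23.0%) was 20.5% with gaps, 27.0% at 200 bp, 24.5% without short peaks, 24.4% in the wider 50%, 27.2% at equal length and 33.4% at 400 to 600 bp.

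The remaining values are differences in percentage points. C/EBPbeta, closed minus kept (-2.96), was -0.462 with gaps and -4.25 at equal length, and turned to 2.59 in the wider 50% and 0.329 at 400 to 600 bp. The interval at 400 to 600 bp, -1.46 to 2.12, took in both signs. GR, closed minus kept (-6.18), was -5.25 at 200 bp, -5.51 in the wider 50% and -3.48 at 400 to 600 bp. PPARgamma, new minus closed (4.15), was 3.48, 6.59 and 5.10 under the same settings. RNA Pol II, new minus kept (-25.7), was -16.9, -33.0 and -19.9 under them, -24.4 with 50% overlap required, -27.0 at equal length and -23.7 around peak middles. The share closed with 5 factors minus that with none (-18.1) was -15.3 with gaps, -11.1 in the wider 50%, -21.2 at equal length and -20.7 at 400 to 600 bp. Of 61 planned values, 28 moved by less than their interval, 31 moved further and 2 turned. Of 36 values added after seeing the data, 24 moved by less than their interval and 12 moved further, none turning. Among these, PPARgamma of day 2, new minus kept day 1 peaks, was 0.215 (-0.280 to 0.710) in the main setting. It was 2.42 (1.57 to 3.26) in the wider 50% and 2.31 (1.57 to 3.05) at 400 to 600 bp.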
